A study of Mus musculus with 6 samples.

Results

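The tight junction genes described here were Cldn3, Cldn4, Cldn7, Cldn12 and Cldn15 (claudins), Tjp1 and Tjp3 (scaffolds), and F11r and Marveld2 (other membrane proteins of the junction). They are 9 of 9697 protein-coding genes with an H3K9ac interval in any library. They were found by symbol: an interval belonged to a gene where the gene names that the authors attached to it held that symbol, whatever its region class. This gave 100 of the 42851 intervals in all lists. Of the 100, 49 were classed by the authors as promoter, 24 as upstream, 19 as intron, 6 as exon and 2 as intergenic.

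The mark, acetylation of lysine 9 of histone H3 (H3K9ac), was profiled by chromatin immunoprecipitation and sequencing in epithelial cells taken from the distal intestine of C57BL/6 mice. There were 3 housing groups of 2 libraries each. Conventional mice were housed with an ordinary microbiota, E. coli-monoassociated mice carried that bacterium alone, and germ-free mice carried none. The question is how colonization with a complete or a single-species microbiota relates to this mark. All groups had the same strain, gut region and antibody. Whether the libraries of a group stem from different animals is not labelled, and replicate differences may therefore be technical. In such bulk cells, fewer cells that carry the mark at a gene and less of it per cell cannot be told apart. No genetic change is named in the labels.

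Tight junctions seal the space between neighbouring epithelial cells near their apical side. Claudins are membrane-spanning proteins whose strands either close this space or form pores for ions. ZO proteins such as the products of Tjp1 and Tjp3 bind the tails of most claudins and tie them to actin. H3K9ac is found at nucleosomes around the start sites of genes in use, so a called interval marks chromatin that carries the acetylation and not a level of RNA or protein.

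The peak lists differed greatly in length, which bears on every count below. They held 3117 and 15352 intervals in conventional replicates 1 and 2, 1988 and 870 in the E. coli libraries, and 4430 and 17094 in the germ-free libraries. The labels state 20000000 reads per library. Background, in extended reads per base, ran from 0.381 (conventional replicate 2) to 0.733 (germ-free replicate 1). The lowest fold in any list was 3.62, so weaker enrichment was not listed and an uncalled gene may still carry the mark. Epithelial markers had calls in all lists, from 4 of 6 genes (E. coli replicate 2) to 6 of 6. Of 6 T, B and myeloid markers, 1 (Itgam) had a call in germ-free replicate 2 alone. Of 6 endothelial and stromal markers, Pecam1, Cdh5 and Cldn5 had calls, in at most 2 libraries each, and Col1a1, Col3a1 and Acta2 had none.

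The promoter sequences of 4 genes are shown, picked by the calls of the genes. Cldn3 and Cldn7 were called in every library. Cldn15 had the longer calls in conventional than in germ-free libraries, and F11r had calls in both germ-free and in neither E. coli library. Each sequence is the RefSeq window from 250 bases before to 50 bases after a start site on GRCm38.p6, the assembly behind mm10, read 5′ to 3′ on the gene's strand. Capitals mark 7 motifs on either strand: the GC box GGGCGG, the Krüppel-like factor motif CCACCC, the Snail-type E-box CACCTG, the Ets motif CCGGAAG, the promoter element CCAAT, the TATA element TATAAA and the grainyhead motif AACCGGTT. Matches may share bases, which happened for 1 base in the Cldn3 window.
Cldn3 (chr5:134985964-134986263, plus strand): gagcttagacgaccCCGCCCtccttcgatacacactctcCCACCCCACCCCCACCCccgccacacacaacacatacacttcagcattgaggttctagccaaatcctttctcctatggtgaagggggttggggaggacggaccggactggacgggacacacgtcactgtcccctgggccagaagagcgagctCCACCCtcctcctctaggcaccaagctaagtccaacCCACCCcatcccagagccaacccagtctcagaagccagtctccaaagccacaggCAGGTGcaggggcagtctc
Cldn7 first start site (chr11:69964529-69964828, plus strand): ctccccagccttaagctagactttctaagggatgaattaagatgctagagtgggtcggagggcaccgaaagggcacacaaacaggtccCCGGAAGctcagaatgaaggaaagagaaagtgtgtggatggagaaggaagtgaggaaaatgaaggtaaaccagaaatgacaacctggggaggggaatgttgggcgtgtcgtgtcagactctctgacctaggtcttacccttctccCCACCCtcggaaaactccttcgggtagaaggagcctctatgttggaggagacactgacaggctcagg
Cldn7 downstream start site (chr11:69965171-69965470, plus strand): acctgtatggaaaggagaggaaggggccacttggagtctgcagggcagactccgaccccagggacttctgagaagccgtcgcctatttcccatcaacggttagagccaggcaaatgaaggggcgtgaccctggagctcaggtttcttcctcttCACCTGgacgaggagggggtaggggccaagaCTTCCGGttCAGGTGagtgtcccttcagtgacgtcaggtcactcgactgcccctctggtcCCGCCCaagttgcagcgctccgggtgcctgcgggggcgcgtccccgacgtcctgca
Cldn15 (chr5:136967619-136967918, plus strand): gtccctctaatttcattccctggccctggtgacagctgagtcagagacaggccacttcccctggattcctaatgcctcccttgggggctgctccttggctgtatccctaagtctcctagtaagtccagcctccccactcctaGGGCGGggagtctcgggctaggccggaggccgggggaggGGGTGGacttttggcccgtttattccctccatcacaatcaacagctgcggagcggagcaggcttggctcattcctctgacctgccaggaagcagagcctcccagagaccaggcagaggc
F11r (chr1:171437311-171437610, plus strand): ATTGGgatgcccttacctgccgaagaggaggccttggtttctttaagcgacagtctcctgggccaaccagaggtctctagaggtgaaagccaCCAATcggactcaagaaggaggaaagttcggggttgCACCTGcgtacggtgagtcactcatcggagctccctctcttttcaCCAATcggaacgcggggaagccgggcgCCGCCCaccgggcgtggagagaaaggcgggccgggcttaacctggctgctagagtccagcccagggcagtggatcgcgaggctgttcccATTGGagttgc

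The windows of the 9 genes differ in the letters they hold. All 9 genes matched a RefSeq window, with 14 windows in all since Cldn7, Tjp3 and Marveld2 have 2 start sites each and Cldn12 has 3. CCACCC occurred 5 times in the Cldn3 window, and CCAAT 4 times in the F11r window. CACCTG was found in 8 of the 14 windows, from 6 genes, and in 19.7% of the 21262 windows of protein-coding genes. GGGCGG was found in 10 of the 14 windows, from 8 genes, and in 46.2% of all windows. CCACCC was found in 5 windows, from 5 genes, and 33.6% of all. CCGGAAG was found in 5 windows, from 2 genes (Cldn7 and Cldn12), and 11.6% of all, and CCAAT in 5, from 3 genes, and 38.2% of all. The 3 Cldn12 windows overlap, as do the 2 of Marveld2, so 1 site can count more than once. The 14 windows had a median GC of 60.5%, against 56.3% over all windows. TATAAA was found for Marveld2 alone, whose 2 windows overlap, and in 12.6% of all windows. AACCGGTT was found in none of the 14 and in 0.179% of all windows. These matches describe letters in the window and no binding was measured.

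Cldn7 and Cldn3 were the members called in all 6 libraries, and they held the best-ranked intervals among the members in 5 of the lists. In germ-free replicate 2, F11r ranked 249, after Cldn3 at 150 and before Cldn7 at 325. Of all genes called in any library, 3.53% were called in all 6. Cldn7 encodes a claudin found along the whole side of intestinal epithelial cells, and Cldn3 a claudin that closes the paracellular space. The intervals of a gene add up to its called length, counted once where they overlap. The plot of called length by gene and library shows these values for each member.

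**Figure D1:**
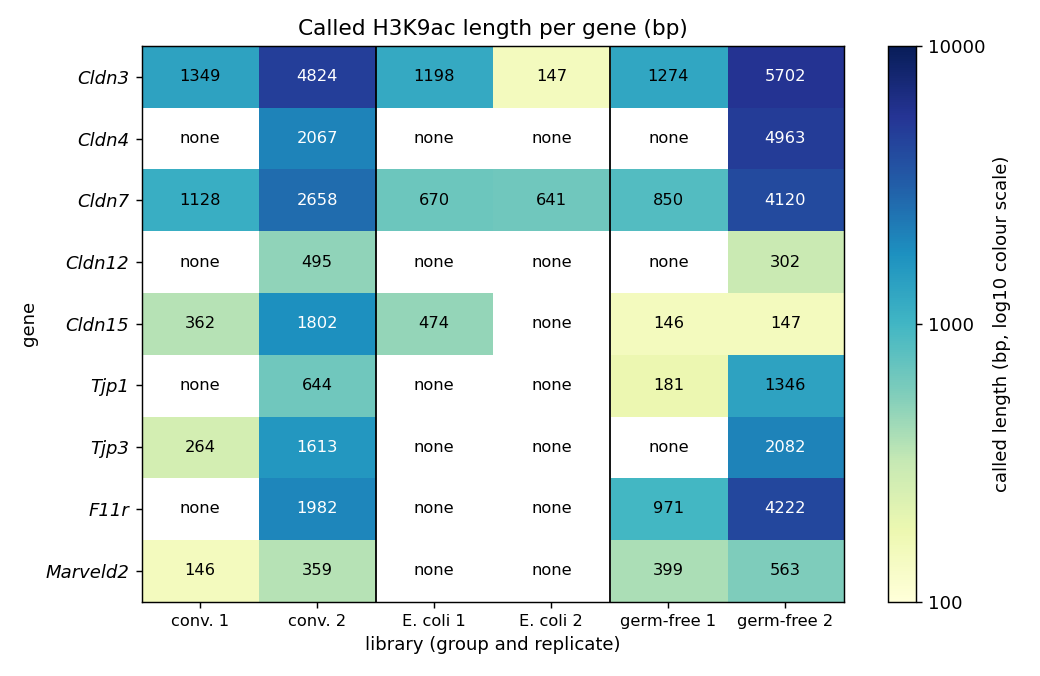
Called H3K9ac length in bp (number and colour, log10 colour scale) for the 9 genes (rows) in the 6 libraries (columns). Cldn3 and Cldn7 have a value in every column, and the E. coli columns hold no called base for all other genes except Cldn15 in replicate 1, with 474 bp.

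At Cldn7 (chromosome 11, 69964779 to 69967886, plus strand, start sites 642 bp apart) the called length was 1128 and 2658 bp in conventional libraries, 670 and 641 bp in E. coli libraries, and 850 and 4120 bp in germ-free libraries (replicates 1 and 2). Both E. coli libraries lay below all 4 others. Part of the length in the long lists was attached to further genes. In germ-free replicate 2, 1251 bp were attached to Elp5 too, and upstream intervals of 262, 169 and 162 bp to Ctdnep1 and Slc2a4. In conventional replicate 2, 506 bp were attached to Elp5 as well. Intervals that reached within 1 kb of a start site were also counted alone, at full length. They held 1128 and 2152 bp in conventional and 512 and 494 bp in E. coli libraries. In germ-free libraries they held 850 and 2276 bp, so the order was kept. The strongest Cldn7 interval was enriched 7.78-fold and 16.7-fold in conventional, 8.29-fold and 6.41-fold in E. coli, and 10.4-fold and 12.0-fold in germ-free lists. These folds are the authors' own values for each peak, relative to the background of their own list, so they order peaks inside a list and are not compared between lists. All 15 pairs of libraries overlapped, and 214 bp were called in all 6, from 69965880 to 69966093. This stretch lies 459 to 672 bp downstream of the second start site. The first window printed above was covered over 189 bases in conventional replicate 2 and over all 300 bases in germ-free replicate 2. The downstream window was touched over 3 bases in conventional replicate 2 alone, so the called chromatin lay beside that window and not on it.

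At Cldn3 (chromosome 5, 134986214 to 134987476, plus strand) the called length was 1349 and 4824 bp in conventional, 1198 and 147 bp in E. coli, and 1274 and 5702 bp in germ-free libraries. Both E. coli libraries again lay below the other 4, replicate 1 by 76 bp against the next lowest, germ-free replicate 1. This order did not hold for intervals that reached within 1 kb of the start site, taken at full length. They had 1198 and 0 bp in E. coli libraries and 578 and 3552 bp in germ-free libraries. The E. coli replicate 1 interval ran on to 1702 bp, while a germ-free replicate 1 interval that began at 1040 bp was left out. The order did not hold with intervals tied to a single gene either. The strongest interval had 8.49-fold and 15.2-fold enrichment in conventional, 7.10-fold and 5.70-fold in E. coli, and 10.4-fold and 14.6-fold in germ-free lists. In the long lists this was one domain of 3673 bp (conventional replicate 2) and 3195 bp (germ-free replicate 2), which ran past the end of the gene. The 147 bp called in all 6 libraries, from 134987382 to 134987528, lay 1168 to 1314 bp from the start site and spanned the gene's annotated end. The authors attached the E. coli replicate 2 and germ-free replicate 1 intervals there to Cldn3 and to Wbscr25, a noncoding transcript that overlaps the end of Cldn3. Signal from the 2 cannot be told apart there, and within 1 kb of the start site Cldn3 was called in 5 libraries, all but E. coli replicate 2. The printed Cldn3 window was covered over its 300 bases in germ-free replicate 2 and in no other library.

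Cldn15 encodes a claudin that forms cation channels and is needed for sodium supply to nutrient uptake in the small intestine of mice. It was called in 5 libraries. At Cldn15 (chromosome 5, 136967869 to 136975845, plus strand) the called length was 362 and 1802 bp in conventional, 474 and 0 bp in E. coli, and 146 and 147 bp in germ-free libraries. Both conventional libraries lay above both germ-free libraries, of which replicate 2 had the longest list of all. Each germ-free length came from 1 interval, as short as the shortest in its list (146 and 147 bp). E. coli replicate 1 lay between the conventional libraries, and E. coli replicate 2 lay below all others. The strongest interval had 6.37-fold and 8.69-fold enrichment in conventional lists, 7.10-fold in E. coli replicate 1, and 5.19-fold and 4.43-fold in germ-free lists. With lists of equal length, Cldn15 was left in E. coli replicate 1 alone, so the longer length in conventional than in germ-free libraries was lost.

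**Figure D2:**
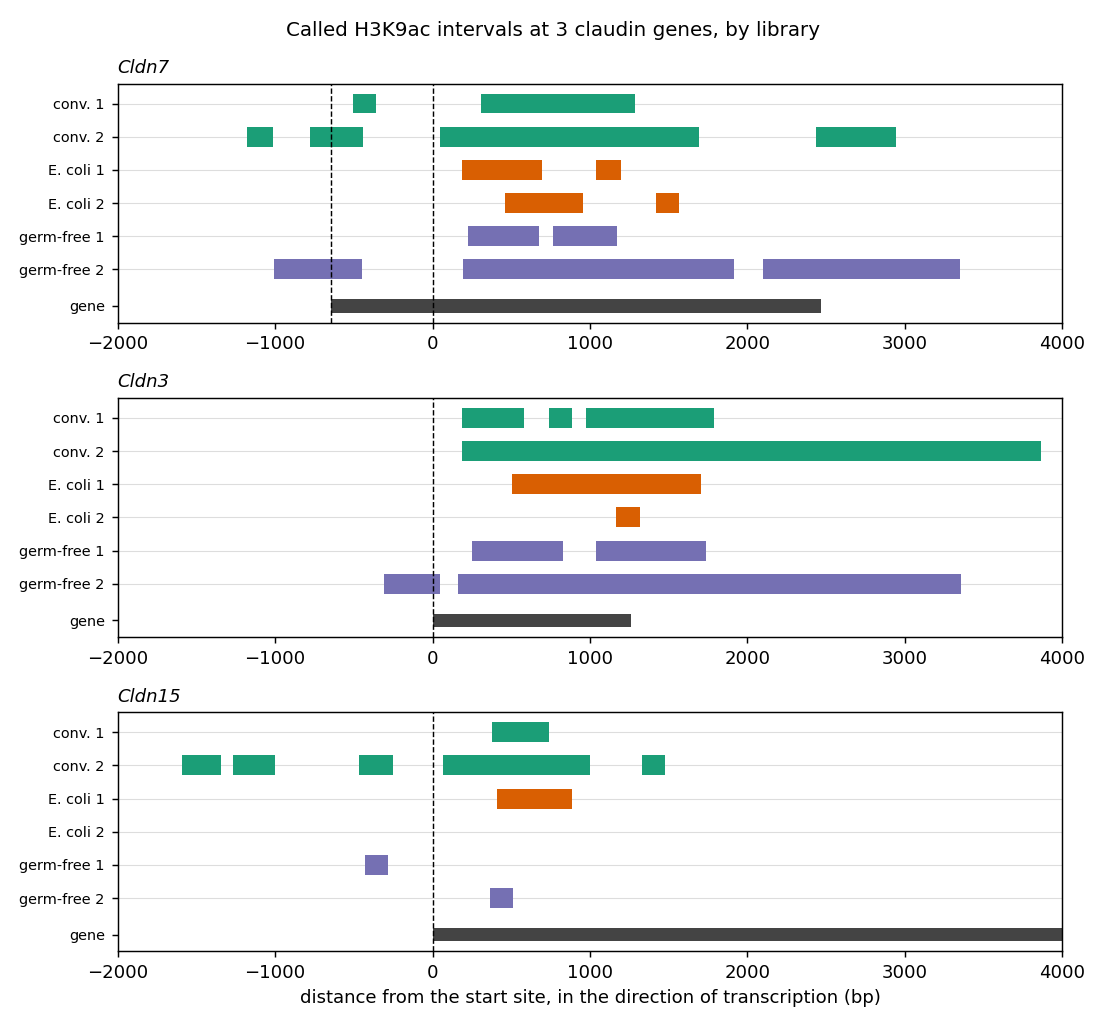
Called intervals (bars) at Cldn7, Cldn3 and Cldn15 by library, against distance in bp from the start site (for Cldn7 the downstream one). Dashed lines mark start sites and the dark bar the gene. The bars at Cldn7 and Cldn3 stack downstream of the start site in all 6 rows, whereas at Cldn15 the E. coli replicate 2 row is empty and germ-free replicate 1 has 146 bp upstream.

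The Cldn15 intervals did not all lie at one place, and none of them touched the printed Cldn15 window. Those of conventional replicates 1 and 2, E. coli replicate 1 and germ-free replicate 2 shared 98 bp, from 136968281 to 136968378, which is 412 to 509 bp downstream of the start site. The germ-free replicate 1 interval lay 283 to 428 bp upstream and overlapped only a second interval of conventional replicate 2, so 7 of 10 pairs of libraries overlapped. The summit of the strongest interval held 8 and 11 extended reads in conventional libraries, 11 in E. coli replicate 1 and 8 in germ-free replicate 1, and its -log10 q was 5.01 and 9.94 in conventional, 6.57 in E. coli replicate 1, and 3.24 and 2.63 in germ-free lists. Conventional replicate 2 also called 246 and 264 bp more than 1 kb upstream, which the authors attached to Cldn15 and Plod3.

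Cldn4 encodes a claudin that closes the paracellular space, and its gene lies near Cldn3 and is transcribed in the opposite direction. It was called in the 2 long lists only, and so was Cldn12, a claudin for which a role in calcium passage has been described in mice. Of all genes, 30% showed this same pattern. At Cldn4 (chromosome 5, 134945123 to 134946934, minus strand) the called length was 0 and 2067 bp in conventional, 0 and 0 bp in E. coli, and 0 and 4963 bp in germ-free libraries. In conventional replicate 2 the highest fold was 5.79, at intervals 507 and 20951 bp upstream of the start site. The farther one was attached to Cldn3 too, and the intervals over the gene had 5.07-fold enrichment. The strongest interval of germ-free replicate 2 had 10.8-fold enrichment and was 1990 bp long. It covered the gene from 142 bp downstream of the start site to beyond the gene's end. Intervals that reached within 1 kb of the start site had a full length of 744 bp in conventional replicate 2 and 2446 bp in germ-free replicate 2. At Cldn12 (chromosome 5, 5505015 to 5514976, minus strand) the length was 0 and 495 bp in conventional, 0 and 0 bp in E. coli, and 0 and 302 bp in germ-free libraries, and the 2 intervals shared 164 bp.

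Between the Cldn4 and Cldn3 start sites, 39280 bp apart, the long lists held intervals more than 1 kb from either. There were 6 in conventional replicate 2 (1618 bp) and 13 in germ-free replicate 2 (3887 bp), and none in the other 4 libraries. All 6 of conventional replicate 2 overlapped one of germ-free replicate 2, by 6 to 341 bp, and 5 of the 13 of germ-free replicate 2 overlapped in return. Their folds were 4.35 to 5.79 in conventional replicate 2 and 4.43 to 8.24 in germ-free replicate 2. The closest shared pair to Cldn3 lay 2462 bp upstream of its start site (134983550 to 134983752), with 5.79-fold and 7.60-fold enrichment in the same order. The highest of these folds, 8.24, belonged to an interval of 534 bp at 134966878 to 134967411 that the authors attached to both claudins.

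**Figure D3:**
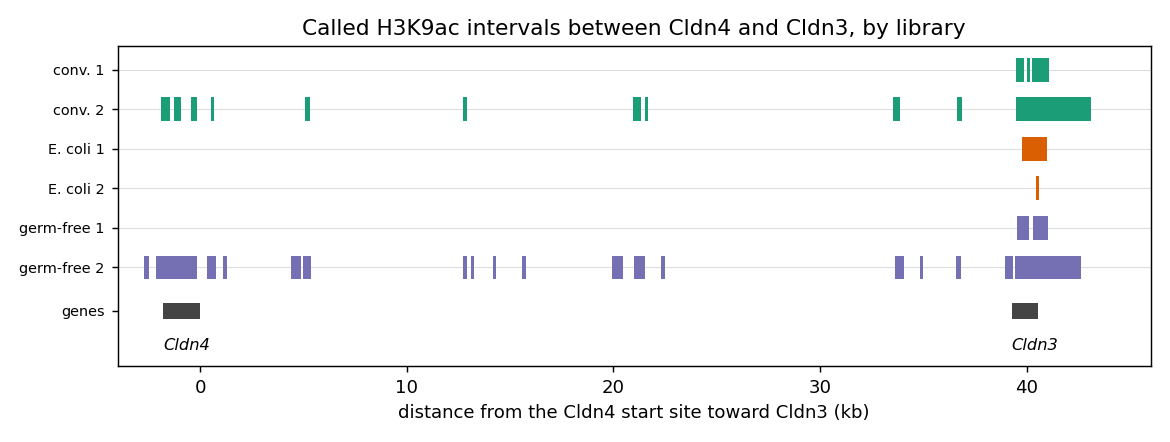
Called intervals (bars) by library over the Cldn4 and Cldn3 genes, against distance in kb from the Cldn4 start site toward Cldn3. Only conventional replicate 2 and germ-free replicate 2 have bars between the genes, 6 and 13 of them more than 1 kb from either start site.

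Tjp1 encodes ZO-1 and Tjp3 encodes ZO-3, membrane-associated scaffolds with PDZ domains. Neither was called in an E. coli library. At Tjp1 (chromosome 7, 65296165 to 65527850, minus strand) the start site used, 65371244, lies inside the gene and not at its annotated 5′ end. The called length of Tjp1 was 0 and 644 bp in conventional, 0 and 0 bp in E. coli, and 181 and 1346 bp in germ-free libraries. Its germ-free replicate 1 interval had 4.04-fold enrichment, the lowest fold of that list, and the strongest interval of germ-free replicate 2 had 10.1-fold. No base of Tjp1 was called in all 3 of these libraries. At Tjp3 (chromosome 10, 81273188 to 81291581, minus strand) the length was 264 and 1613 bp in conventional, 0 and 0 bp in E. coli, and 0 and 2082 bp in germ-free libraries. The 3 libraries shared 264 bp, from 81290665 to 81290928, which is 339 to 602 bp downstream of the second start site. The strongest Tjp3 interval had 7.78-fold and 7.97-fold enrichment in conventional lists and 7.60-fold in germ-free replicate 2. One of the germ-free replicate 2 intervals, 147 bp, was attached to Pip5k1c as well.

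F11r encodes JAM-A, an immunoglobulin-domain adhesion molecule of the junction, and Marveld2 encodes tricellulin, which seals the corners where neighbouring cells meet. Both were called in both germ-free libraries and in neither E. coli library. At F11r (chromosome 1, 171437561 to 171464593, plus strand) the called length was 0 and 1982 bp in conventional, 0 and 0 bp in E. coli, and 971 and 4222 bp in germ-free libraries. Its strongest interval had 6.52-fold enrichment in conventional replicate 2, and 6.93-fold and 12.7-fold in germ-free lists. The germ-free replicate 2 domain ran from 340 to 2818 bp downstream of the start site, and no library touched the printed F11r window. At Marveld2 (chromosome 13, 100595957 to 100616971, minus strand) the length was 146 and 359 bp in conventional, 0 and 0 bp in E. coli, and 399 and 563 bp in germ-free libraries. The conventional libraries lay below the germ-free ones in length. The strongest Marveld2 interval had 5.66-fold and 8.69-fold enrichment in conventional lists, and 5.19-fold and 5.70-fold in germ-free lists. With intervals of a -log10 q of 5 or more, or with lists of equal length, Marveld2 was no longer shorter in conventional or E. coli than in germ-free libraries. The 4 libraries shared 87 bp, from 100616294 to 100616380. Part of the length lay elsewhere: conventional replicate 2 called 147 bp beyond the gene's end, and both germ-free libraries called a second, intronic interval, at 100606463 to 100606608 in replicate 1 and 100606399 to 100606695 in replicate 2. Within 1 kb of the start site the lengths were 146 and 212 bp in conventional and 253 and 266 bp in germ-free libraries.

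**Figure D4:**
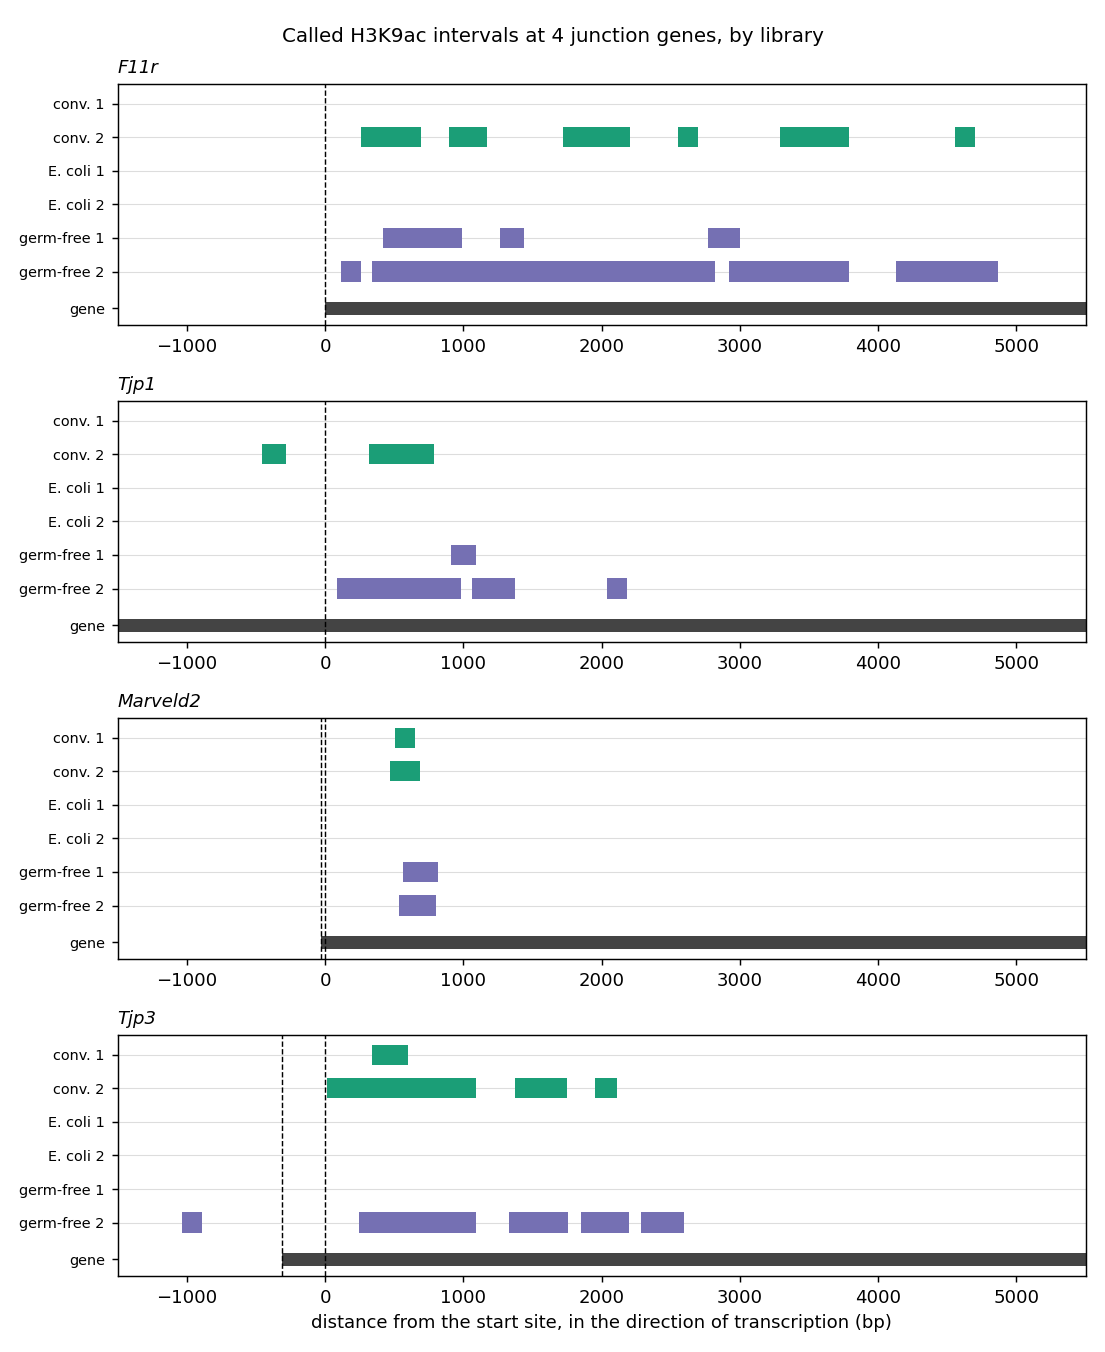
Called intervals (bars) at F11r, Tjp1, Marveld2 and Tjp3 by library, against distance in bp from the start site (for Marveld2 and Tjp3 the downstream one). Dashed lines mark start sites and the dark bar the gene. Both E. coli rows are empty in all 4 panels, and the intronic and intergenic Marveld2 intervals lie beyond the axis.

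The housing groups were compared by calls, with the background over all genes beside each count. With 2 libraries a group, an exact permutation test cannot give a p under 0.333, so no difference between groups could pass the usual threshold and none was tested. For E. coli-monoassociated against germ-free mice, 6 members had a call in both germ-free libraries, and 3 of them (F11r, Marveld2 and Tjp1) had none in either E. coli library. Of the 2735 genes with calls in both germ-free libraries, 62.5% were called in neither of the E. coli libraries (17.6% of all genes), so 3 in 6 members was no larger a share. Without germ-free replicate 1, the count was 6. No member was called in both E. coli and neither germ-free library, and 0% of 380 genes were. The called length was shorter in both E. coli than in both germ-free libraries for 5 members (Cldn3, Cldn7, F11r, Marveld2 and Tjp1) and for 24.9% of all genes. Only genes called in both germ-free libraries can count here. Of these, 5 of 6 members and 2415 of 2735 genes were shorter, so the members' share was no larger. Without germ-free replicate 1, 8 members were shorter. With a -log10 q of 5 or more, or with lists of equal length, F11r alone was shorter. It was longer for 0 members and for 0.0309% of all genes; without E. coli replicate 2 it was longer for 1 member, Cldn15.

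For conventional against germ-free mice, calls of the members hardly separated the groups. No member was called in both conventional and neither germ-free library, against 2.76% of the 2285 genes called in both conventional libraries (0.65% of all genes). No member showed the opposite either, against 2.71% of genes called in both germ-free libraries (0.763% of all genes). Without germ-free replicate 2, Tjp3 had a call in the conventional libraries alone, and without conventional replicate 2, F11r and Tjp1 had calls in the germ-free libraries alone. Called length was longer in both conventional than in both germ-free libraries for 1 member, Cldn15, and 1.78% of all genes (173 of the 2285 called in both conventional libraries). It was shorter for 1 member, Marveld2, and 1.65% of all genes (160 of the 2735 called in both germ-free libraries). Both counts changed with the library left out. Such an omission only loosens the rule, so the counts can rise but not fall. The longer members were 4 without germ-free replicate 2 and 2 without conventional replicate 1. The shorter ones were 7 without germ-free replicate 1 and 3 without conventional replicate 2. Cldn15 and Marveld2 had to keep their order under each omission. With lists of equal length neither kept it, and at a -log10 q of 5 or more Cldn15 did and Marveld2 did not. F11r was the shorter member under both settings.

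For conventional against E. coli-monoassociated mice, 5 members had a call in both conventional libraries, and 2 of them (Marveld2 and Tjp3) had none in either E. coli library. That was so for 57.5% of genes with calls in both conventional libraries (13.5% of all genes), and for 6 members without conventional replicate 1. No member was called in both E. coli and neither conventional library, against 1.05% of 380 genes (0.0412% of all genes). Called length was longer in both conventional than in both E. coli libraries for 4 members (Cldn3, Cldn7, Marveld2 and Tjp3) and for 20.4% of all genes. Only genes called in both conventional libraries can count here. Of these, 4 of 5 members and 1975 of 2285 genes were longer, so the members' share was no larger. Without conventional replicate 1, 9 members were longer. Called length was shorter for 0 members and 0.0722% of all genes. The comparisons share libraries with each other, so they are not independent.

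The order of list lengths and of member calls was nearly the same. The number of members called was 5 and 9 in conventional, 3 and 2 in E. coli, and 6 and 9 in germ-free libraries. Of all genes called in any library, 23.9% and 84.7% were called in conventional, 14.6% and 5.82% in E. coli, and 32.6% and 78.2% in germ-free libraries. The member counts are 55.6% and 100%, 33.3% and 22.2%, and 66.7% and 100% of 9 in the same order. The members were chosen with calls of these libraries known, so their higher shares are no evidence about them. When each list was cut to its 870 best intervals by significance, which makes all equally long, the members left were 3 and 2 in conventional, 3 and 2 in E. coli, and 3 and 5 in germ-free libraries. Cldn3 and Cldn7 were among them in all 6 libraries. At that length F11r was left in both germ-free libraries only, Tjp3 in conventional replicate 1 only, and Cldn15 in E. coli replicate 1 only.

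Other tight junction genes, from a list of 47, followed the lengths of the peak lists too. Of the 47, 28 had an interval in any library, with 12 and 25 in conventional, 8 and 4 in E. coli, and 14 and 27 in germ-free libraries. Of the 14 called in both germ-free libraries, 6 were called in neither E. coli library: Cldn14, the adaptor Cgn (cingulin), the scaffolds Magi1 and Magi3, and the polarity genes Pard3 and Pard6b. Over all genes this share was 62.5%, so 6 of 14 was no larger. Of the 12 called in both conventional libraries, 4 were called in neither E. coli library: Magi1, Magi3, Pard6b and Sympk. Over all genes that share was 57.5%, so 4 of 12 was no larger either. No gene of the list separated conventional from germ-free libraries in this way, against 2.76% of genes called in both conventional and 2.71% of those called in both germ-free libraries.

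**Figure D5:**
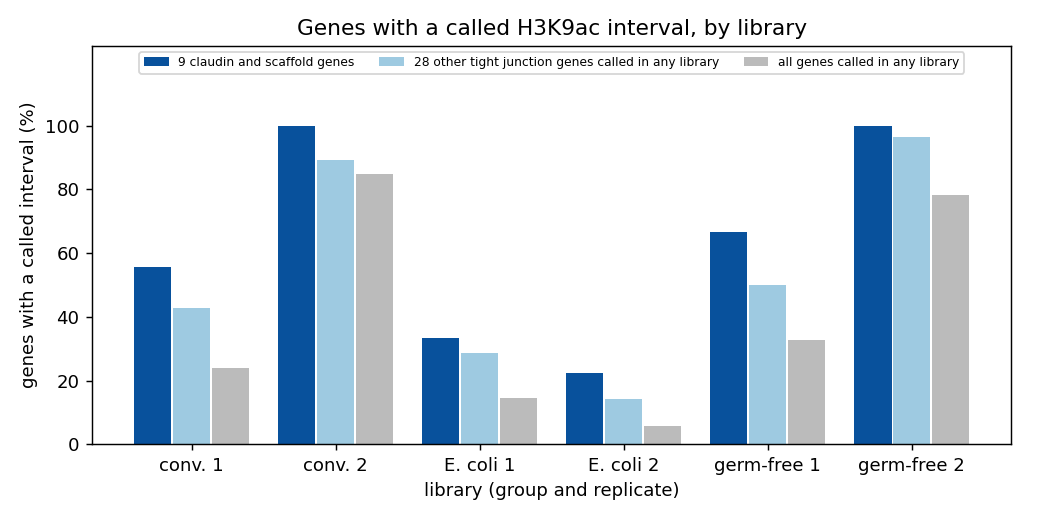
Percentage of genes with a called interval in each library, for the 9 claudin and scaffold genes, the 28 of 47 other tight junction genes called in any library, and all 9697 genes called in any library. All 3 sets are lowest in the E. coli libraries and highest in conventional replicate 2 or germ-free replicate 2.

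Genes of that list with the same calls over the 6 libraries as a member were named by a fixed rule. Cldn23, a further claudin, shared the pattern of Cldn3 and Cldn7, with calls in all 6. At Cldn23 the called length was 428 and 454 bp in conventional, 551 and 152 bp in E. coli, and 498 and 1189 bp in germ-free libraries. Ocln (occludin), Cxadr (an adhesion receptor) and Patj (a polarity scaffold) shared the pattern of Cldn15, which 4.03% of all genes had. Occludin's gene lies 43238 bp from Marveld2, and its called length was 341 and 2561 bp in conventional, 146 and 0 bp in E. coli, and 956 and 6137 bp in germ-free libraries. Cgn, Pard3 and Cldn14 shared the pattern of Tjp1 and F11r (9.99% of all genes), Magi3, Pard6b and Magi1 that of Marveld2 (6.93%), Sympk that of Tjp3 (5.87%), and Igsf5, Ybx3 and Prkci that of Cldn4 and Cldn12.

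Most members' intervals lay downstream of the start site. Of the 49 intervals within 1 kb of a member's start site, 39 lay wholly downstream, 7 wholly upstream and 3 across it. Over all protein-coding genes the shares were 63.5% downstream, 24.9% upstream and 11.6% across, of 22990 pairs of an interval and a gene. An interval attached to several genes counts once for each of them there, so the shares are not fully comparable. The members' share downstream was 79.6%. The 3 across a start site were 1 in conventional replicate 2 and 1 in germ-free replicate 2 at Cldn7, and 1 in germ-free replicate 2 at Cldn3. The midpoints of these member intervals, of which the E. coli libraries had 3 and 1, had a median of 568 and 505 bp downstream in conventional, 648.5 and 706 bp in E. coli, and 690 and 520.5 bp in germ-free libraries, against 381.5 and 317 bp, 361 and 404 bp, and 362.5 and 340 bp over all genes. Intervals of 1 gene share their chromatin, so these shares are a description.

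The members' intervals rested on few reads. In the 5 lists that give a pileup, the highest summit of an interval held 4 to 22 extended reads, with a median of 7 over 60 intervals. The highest was at Cldn7 in conventional replicate 2. Over all 6 lists the 100 intervals were 146 to 3673 bp long, with a median of 303.5 bp.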

How the data were processed

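H3K9ac libraries of 3 groups, 2 each, were compared. Groups and replicate numbers came from the sample labels, and the members and gene lists were chosen with earlier results of these data known. Per the labels, libraries were single-end, 50 bp, 20000000 reads. Bowtie 1.2.0 and MACS2 2.1.1.20160309, with mm10, are named in the submitters' processing notes; for calling options and an input control, the sources used here give nothing. The deposited lists, 1 per library, give the summit pileup (coverage signal), the -log10 p and -log10 q, the fold (a ratio to background), the region class and nearest genes. The deposited list of germ-free replicate 2 has 14 header names over 13 cells, no pileup and shifted columns, which were identified from the values; its background was inferred from the steps between folds.

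Lines that list 1 interval again under another summit were joined, and the highest fold kept. The germ-free replicate 2 list held no such lines, with 17094 lines for 17094 intervals. Each other list did, for example conventional replicate 2 with 18032 lines for 15352 intervals. Of 10621 gene names, 132 matched no RefSeq symbol and no single synonym; protein-coding genes were kept. Called length was the union of a gene's intervals in bp. Lengths given within 1 kb are full lengths of the intervals that reach within 1 kb of a start site. Start sites came from RefSeq (GRCm38.p6). All 9 genes were named; other junction genes were named where called in all 6 libraries, in both libraries of a group and neither of another, or with a member's pattern (at most 3, by mean rank). One gene that this rule names is not reported here. The scripts recovered all planted calls and lengths on simulated lists. Python 3.11.15, pandas 2.3.3, NumPy 2.4.6 and matplotlib 3.10.9 were used.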

Additional observations from a re-analysis of the deposited data

How the results depend on the processing

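The counts of members held within 1.5 times of the reported value, for all 13 counts, with intervals within 2.5 kb of a start site and with a fold of 5 or more. Members called in all 6 libraries were 2, and 1 (Cldn7) within 1 kb of a start site or with intervals tied to a single gene, and 0 at a -log10 q of 5 or more. At that q, members called in the germ-free pair and in neither E. coli library became 1 (F11r), those in both conventional and neither E. coli library 1 (Tjp3), those in both conventional and neither germ-free library 1 (Cldn15), and those shorter in E. coli than germ-free libraries 1 (F11r). With equal list lengths, 1 member (F11r) was in the germ-free pair and neither E. coli library, 1 (F11r) in both germ-free and neither conventional library and 0 in both conventional and neither E. coli library; 1 (F11r) was shorter in E. coli than germ-free, 2 were longer in conventional than E. coli, and 0 longer in conventional than germ-free libraries. The cause was not tested beyond the shorter lists.

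Leaving out 1 library at a time, members in the germ-free pair and neither E. coli library ranged from 3 to 6, the 6 without germ-free replicate 1, and members in both conventional and neither E. coli library from 2 to 6, the 6 without conventional replicate 1. Members in both conventional and neither germ-free library ranged from 0 to 1 (Tjp3, without germ-free replicate 2), and the reverse from 0 to 2 (F11r and Tjp1, without conventional replicate 2). Members longer in E. coli than germ-free ranged from 0 to 1 (Cldn15, without E. coli replicate 2), and shorter from 5 to 8. Members longer in conventional than E. coli ranged from 4 to 9. Members longer in conventional than germ-free ranged from 1 to 4 and shorter from 1 to 7. Leaving out a library only loosens the rules behind all these counts, so none could fall. Cldn15 therefore had to stay longer under each omission, which is no sign of a stable order. Members called in all remaining libraries ranged from 2 to 3, and the counts of members called in E. coli libraries alone, and of those shorter in conventional than E. coli libraries, from 0 to 0. Without both long lists, an alternative chosen after seeing the data, the 2 members in all libraries and the counts against E. coli libraries were unchanged, while 1 (Tjp3) was in conventional and neither germ-free library, 2 (F11r and Tjp1) the reverse, 4 were longer in conventional than germ-free and 3 shorter.

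Over 9697 genes the correlation of deviations was 0.032 for E. coli and germ-free, 0.24 for conventional and germ-free, and 0.018 for conventional and E. coli libraries, with 2 pairs each. The labels give the number alone, and with 2 pairs it was not taken as a pairing. With the replicate number as a block, 3 members (F11r, Marveld2 and Tjp1) were shorter in conventional than in germ-free libraries, and the other 5 counts stayed within 1.5 times. Calls at 4 to 6 extended reads leave weak enrichment out of the lists.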
